A study of Homo sapiens with 9 samples.

Results

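The genes described here are 6 chemokines that recruit T cells: CXCL9, CXCL10, CXCL11, CCL5, CX3CL1 and CXCL16. They were taken by gene name from the deposited table of 33861 genes and were chosen by their counts and fold changes in the same 9 libraries, with earlier results of these data known, so their differences between groups are given as a description and without a test. All 6 had a row, and 4 of them (CXCL10, CXCL11, CCL5 and CXCL16) passed the filter on low counts that left 20988 genes for testing. CXCL9 and CX3CL1 did not pass it, and their values are given as counts. The RNA came from HCT116, a human colorectal cancer cell line, in 3 groups with 3 libraries each. NC cells received neither factor. Activin cells were given activin A, a ligand of the TGF-beta family, at 100 ng/mL over 5 days. Activin+HGF cells had the same 5 days of activin A and then 20 ng/mL hepatocyte growth factor (HGF), the ligand of the receptor MET, for 5 more days. No group received HGF alone, and how long NC cells were cultured is not stated, so the HGF step and the additional days of culture cannot be told apart. The sources do not say whether the libraries of a group came from separate cultures, so the tests measure only the spread between these libraries.

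Chemokines are small secreted proteins that guide leukocytes along a gradient. CXCL9, CXCL10 and CXCL11 are ligands of CXCR3, the receptor of activated T cells and NK cells, and are classical targets of interferon. CCL5, also called RANTES, binds several receptors of the CC family and is induced by NF-κB and interferon regulatory factors. CX3CL1, or fractalkine, and CXCL16 differ from the rest in being made as transmembrane proteins on a mucin stalk, from which ADAM proteases release the soluble chemokine. Their receptors are CX3CR1 and CXCR6. In colorectal tumours the CXCR3 ligands and CCL5 are known for their association with T cell infiltration. Only RNA was measured here, and no protein was.

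The 9 libraries held 57453977 to 77016167 counts on genes. Low counts came in steps. Multiples of 4 made up 35.0% of all values between 1 and 40, where an even spread would give 25%, so a count need not be 1 fragment. A count of 0 was given a floor of 3 counts per library. That floor may be less than 1 fragment, so bounds at a floor of 12 counts are printed beside it and are the more cautious. CPM below is the count relative to the TMM-scaled library size, and FPKM, which also accounts for gene length, is used where genes are compared with each other.

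CXCL9, CXCL10 and CXCL11 lie in a cluster on the minus strand of chromosome 4 (GRCh38), at 76001275 to 76007509, 76021118 to 76023497 and 76033682 to 76041415. RefSeq promoters were at hand for these 3 members. The sequence upstream of CXCL10, the CXCR3 ligand with the highest level in these libraries, and that of its nearly unexpressed neighbour CXCL9 are shown so that the 2 can be compared. They are the 250 bases before the RefSeq start (GRCh38.p14, minus strand, 5′ to 3′), chr4:76023498-76023747 for CXCL10 and chr4:76007510-76007759 for CXCL9. Capitals mark matches to the interferon-response type GAAANNGAAA and to the NF-κB type GGGNNNNNCC, and matches that overlap run together.
CXCL10: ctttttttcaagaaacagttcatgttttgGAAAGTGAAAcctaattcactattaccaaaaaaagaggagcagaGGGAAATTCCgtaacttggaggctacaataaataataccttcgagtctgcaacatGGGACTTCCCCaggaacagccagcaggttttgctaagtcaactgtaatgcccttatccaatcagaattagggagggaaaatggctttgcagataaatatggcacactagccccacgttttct
CXCL9: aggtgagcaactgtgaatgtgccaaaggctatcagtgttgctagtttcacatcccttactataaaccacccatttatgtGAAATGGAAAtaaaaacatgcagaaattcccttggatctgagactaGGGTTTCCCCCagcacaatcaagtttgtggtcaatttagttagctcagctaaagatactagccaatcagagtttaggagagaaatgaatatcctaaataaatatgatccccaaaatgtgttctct
CXCL11: gactcaaagaGGGAAATTCCtgtgccataa

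In CXCL10 the interferon-response type match GAAAGTGAAA lay at −221 to −212 from the start, and NF-κB type matches lay at −177 to −168 and at −122 to −113. The latter overlapped a match on the other strand at −121 to −112. CXCL9 held GAAATGGAAA at −171 to −162 and overlapping NF-κB type matches from −125 to −115. No GAAANNGAAA was found in the same window of CXCL11, which held the GAS type TTCTAGGAA at −240 to −232, the AP-1 type TGACTCA at −87 to −81 and the NF-κB type GGGAAATTCC at −76 to −67. The last of these, at chr4:76036127-76036156 with its flanks, is the same run of 10 bases as the CXCL10 match at −177. The window of CXCL11 lies inside the span that the deposited table gives the gene, because a longer annotated transcript starts further upstream, so only these 30 bases are printed. Among 35116 RefSeq promoters of the same length, searched on both strands, GAAANNGAAA occurred in 3.02%, TTCNNNGAA in 6.57%, TGANTCA in 6.57% and GGGNNNNNCC in 54.4%. The exact run GGGAAATTCC, picked after CXCL11 had been read, occurred in 0.148%, which is 52 promoters. These matches describe letters, not sites at which a factor was bound.

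**Figure D1:**
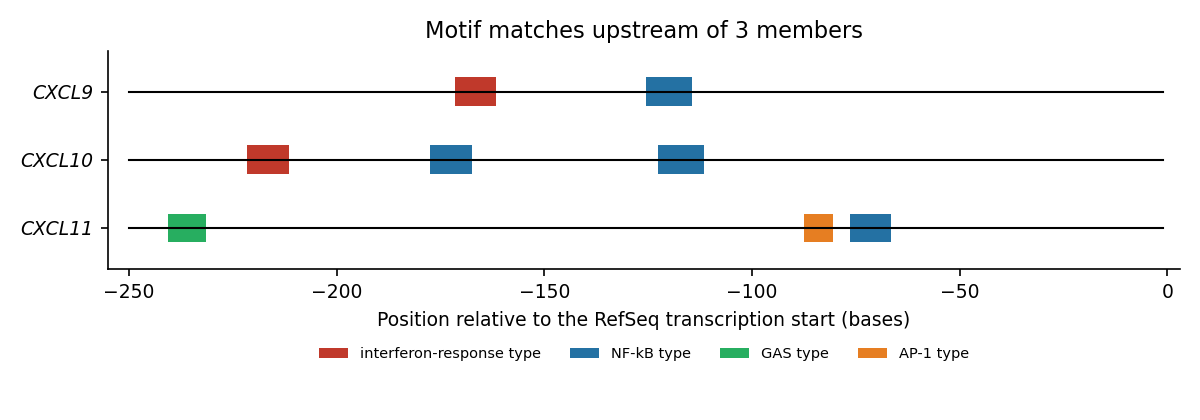
Motif matches in the 250 bases upstream of CXCL9, CXCL10 and CXCL11. The horizontal axis gives the position relative to the RefSeq transcription start in bases, and coloured blocks are matches on either strand. CXCL9 and CXCL10 each hold an interferon-response type match upstream of their NF-κB type matches, while CXCL11 holds a GAS type, an AP-1 type and an NF-κB type match.

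Of the CXCR3 ligands, CXCL10 and CXCL11 were detected in activin-treated cells alone. CXCL10 had 0 counts in every NC library, 307, 209 and 349 counts in the activin libraries, and 0 in every activin + HGF library. This is a mean of 4.05 ± 0.657 CPM with activin (SD, n = 3). At the floor of 3 counts it was at least 82.7-fold above NC and at least 73.5-fold above activin + HGF. With the floor of 12 counts the bounds were 20.7-fold and 18.4-fold. The activin libraries did not overlap with either other group. CXCL11 showed the same arrangement at a lower level and with a wider spread. It had 156, 77 and 255 counts in the activin libraries and 0 in the other 6 libraries, or 2.25 ± 1.09 CPM with activin. Its level was at least 45.9-fold above NC and at least 40.8-fold above activin + HGF at the floor of 3 counts. The floor of 12 counts gave 11.5-fold and 10.2-fold. CXCL9, the CXCR3 ligand most tied to interferon-gamma, had 12 counts in activin library 1 and 0 in the other 8 libraries. It was not detectable as different between groups at this depth. In such bulk samples, fewer cells of a kind and less RNA per cell cannot be told apart.

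CCL5 was the member with the largest gap between groups that could be fitted from counts above 0. Its counts were 0, 6 and 8 for NC, 1257, 1453 and 1328 for activin and 14, 0 and 4 for activin + HGF. The activin libraries stood apart from the other 6, and the NC and activin + HGF libraries overlapped. Activin cells held 19.3 ± 3.42 CPM against 0.0629 ± 0.0547 in NC and 0.107 ± 0.134 in activin + HGF cells. The log2 fold change was 8.16 (SE 0.94) for activin against NC and -7.56 (SE 0.91) for activin + HGF against activin. Between activin + HGF and NC cells it was 0.60 (SE 1.01). Activin + HGF library 1, which held 14 of the 18 counts of its group, weighed on both. Without it the HGF value was -9.23 and the difference from NC -1.07, and without activin + HGF library 2 they were -6.94 and 1.22. CCL5 was called in neither of these fits against NC. CCL5 is encoded on the minus strand of chromosome 17 at 35871491 to 35880793, and the antisense gene AC015849 covers it on the plus strand. AC015849 had 10, 11 and 14 counts in NC, 0, 0 and 18 in activin and 0, 3 and 8 in activin + HGF libraries. It is not stated whether counting used strand, so reads of CCL5 and AC015849 may not be told apart.

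CXCL16 behaved differently, being present in every library. Its counts were 2053, 2599 and 2964 in NC, 2102, 4411 and 3588 in activin and 4816, 4603 and 5021 in activin + HGF libraries. The mean was 36.3 ± 2.59 CPM in NC, 49.0 ± 21.1 CPM in activin and 77.9 ± 10.8 CPM in activin + HGF cells. All 3 activin + HGF libraries were above all 3 NC libraries, whereas the activin libraries overlapped with both groups. The log2 fold change was 1.10 (SE 0.28) for activin + HGF against NC, 0.67 (SE 0.28) for activin + HGF against activin and 0.43 (SE 0.28) for activin against NC. Activin library 2 decided the size of the HGF and activin differences. Without it the HGF difference was 1.03 and the activin difference 0.07. With library totals in place of TMM scaling, activin + HGF against NC was 0.82, a setting that shifted the median of all tested genes in that comparison to -0.30 from -0.03. CXCL16 (chromosome 17, minus strand, 4733531 to 4739928) overlaps ZMYND15 and MED11 on the opposite strand. Neither ran parallel to it, with 125, 133 and 133 counts of ZMYND15 in NC against 31, 39 and 70 in activin + HGF libraries.

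CX3CL1, the other transmembrane member (chromosome 16, plus strand, 57372477 to 57385044), was close to absent. A single NC library and a single activin library held 4 counts each, and the other 7 libraries held 0. No difference between groups was detectable.

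**Figure D2:**
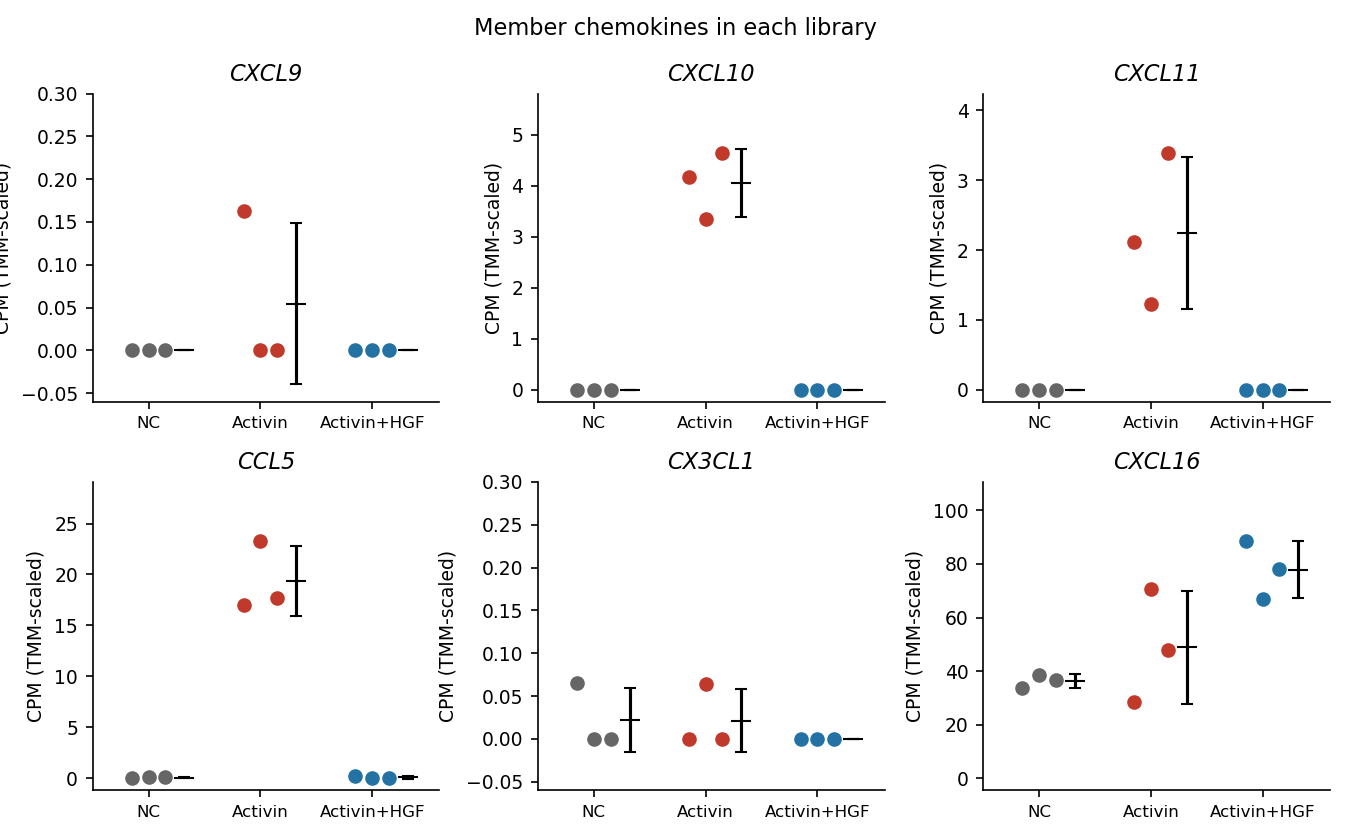
TMM-scaled CPM of each member in every library, on linear axes that differ between panels. Coloured points are the 3 libraries of a group, and the black mark and bar beside them are the mean and SD. CXCL10, CXCL11 and CCL5 are high in the activin libraries and at or near 0 in the other 6, CXCL16 is present throughout, and CXCL9 and CX3CL1 stay near 0.

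Compared per length, CXCL16 was the only member above background in NC cells, at 11.7 ± 0.57 FPKM, while no other member passed 0.05 FPKM in any NC library. In activin cells CXCL16 had 16.3 ± 5.70 FPKM and CCL5 12.1 ± 0.997 FPKM. These neighbours overlapped, since CXCL16 had 10.3 to 21.6 FPKM and CCL5 11.4 to 13.3 FPKM. CXCL10 followed at 2.44 to 3.91 FPKM and CXCL11 at 0.59 to 1.89 FPKM, without overlap between CCL5, CXCL10 and CXCL11. CXCL9 reached 0.06 FPKM in 1 activin library, and CX3CL1 0.01 FPKM, so these last members of the order did not differ beyond their spread. In activin + HGF cells CXCL16 was again alone, at 20.2 ± 1.38 FPKM, and CCL5 was at 0 to 0.11 FPKM.

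The members did not vary together among the activin libraries. Activin library 2 had the lowest CXCL10 and CXCL11 of the 3 and the highest CCL5 and CXCL16. The FPKM ratio of CCL5 to CXCL10 was 3.21, 5.43 and 2.98 in activin libraries 1 to 3, and that of CXCL10 to CXCL11 was 2.99, 4.14 and 2.07. Library 2 thus had the highest value of both ratios.

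In the fit across all genes, the calls required an adjusted p below 0.05 together with a log2 fold change of 1 or more in size. Of the 4 members tested, 3 were called higher with activin than in NC, where 6.78% of all tested genes were called higher, and 0 were called lower, where 4.62% were. CXCL10, CXCL11 and CCL5 were also the 3 called lower in activin + HGF than in activin cells, where 4.21% of all tested genes were, and 0 were called higher, where 3.87% were. CXCL16 was called higher in activin + HGF than in NC cells, where 11.3% were, and 0 members were lower, where 10.2% were. It was the only member called there, and that call was lost with library totals, with limma on FPKM and without NC library 1. Without NC library 1 the log2 fold change was 1.002, so the call was lost on the adjusted p. These contrasts chose the members, so nothing is read from their counts. The activin libraries enter both of the former comparisons.

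The genes whose profiles lay nearest to the members were sought over the 9 libraries, by the Euclidean distance of log2(CPM + 0.1) after each gene was centred on its own mean. Tested genes named only by a clone code were left out. Among the 17398 other genes, the nearest to CXCL10 were CXCL11 at a distance of 1.46, IFIT2 at 1.54 and IFNB1 at 1.69, against a median of 7.77. The nearest to CXCL11 were IFNB1 at 0.992, CXCL10 at 1.46 and RSAD2 at 1.72, with a median of 6.57. IFNB1 encodes interferon beta, and IFIT2 and RSAD2 encode antiviral proteins. IFNB1 had 106, 121 and 229 counts in the activin libraries, 4 in 1 NC library and 0 in the other 5 libraries. IFIT2 differed in having a basal level, with 165 to 283 counts in NC, 3766 to 8821 in activin and 60 to 108 in activin + HGF libraries.

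CCL5 lay nearest to the type III interferon genes IFNL1, IFNL2 and IFNL3, at 1.14, 1.67 and 2.31 against a median of 9.96. IFNL1 had 957, 1184 and 942 counts in activin libraries and 4 counts in all other libraries together. IFNL2 and IFNL3 are near-identical copies, so the split of reads between them is uncertain. Like CCL5, IFNL1 to IFNL3 had their highest count in activin library 2. For CXCL16 the nearest were ETHE1 (0.431), LMNA (0.448) and ADRA2C (0.478) against a median of 2.32, in all of which activin library 2 was also the highest of its group. With a pseudocount of 1 the 3 nearest genes of CCL5 were the same, those of CXCL16 shared 2, those of CXCL11 shared 1 and those of CXCL10 shared 0. RSAD2, HERC5 and IFIH1, interferon-induced genes as well, then led for CXCL10. The distances describe 9 libraries that share groups and scaling.

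The related genes were read from 8 lists of 87 genes that hold receptors, processing enzymes, inducing factors, repressors, mRNA decay factors, neighbours on the chromosome and other chemokines. For them, values before an SE are log2 fold changes of edgeR and adjusted p covers all tested genes. Of the 63 tested, 13 were called in activin against NC, all of them higher, which is 20.6% beside 11.4% of all tested genes. In activin + HGF against activin, 12 were called, 3 higher and 9 lower, which is 19.0% beside 8.09%. In activin + HGF against NC, 21 were called, 14 higher and 7 lower, which is 33.3% beside 21.5%. The median log2 fold changes of these genes were 0.17, -0.21 and 0.16, against 0.02, -0.04 and -0.03 for all tested genes. With library totals as the scaling the split became 1 higher and 14 lower for the HGF step and 9 higher and 11 lower against NC. That setting moved the median of all tested genes to -0.38 and -0.30, and among all called genes it moved the share that was higher from 47.9% to 15% and from 52.6% to 33.4%. The HGF count depended on the activin libraries, with 7 calls without library 1 and 6 without library 3.

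Among the 15 signalling and promoter factors that act on these chemokines, 2 were called higher with activin, beside 6.78% of all tested genes. IRF1, an interferon regulatory factor that binds the promoters of the CXCR3 ligands, had 1042, 1115 and 1386 counts in NC, 3425, 4603 and 4034 in activin and 568, 1660 and 1719 in activin + HGF libraries. It was thus highest in all 3 activin libraries, as were CXCL10, CXCL11 and CCL5, but IRF1 was also well above 0 in NC. IRF1 rose with activin (log2 fold change 1.77, SE 0.32, adjusted p = 0.00446) and fell after HGF (-1.50, SE 0.32, adjusted p = 0.0163). With the 6 libraries compared fitted alone, the fall was -1.54 and was not called (adjusted p = 0.0519). IRF7, the amplifier of interferon production, rose with activin (3.42, SE 0.22, adjusted p = 1.59e-05) and was not called lower after HGF. Its counts were 195 to 219 in NC, 2012 to 2619 in activin and 1948 to 2502 in activin + HGF libraries, with a log2 fold change of 0.13 (SE 0.20, adjusted p = 0.709) after HGF. The levels of IRF7 therefore overlapped between activin and activin + HGF cells.

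IRF9, a DNA-binding factor of interferon signalling, was not called in any comparison. It had 5.38 ± 0.0754 CPM in NC, 8.97 ± 3.24 in activin and 7.74 ± 1.07 in activin + HGF cells, and without activin library 1 it was called higher with activin (1.03, adjusted p = 0.0278). IFNAR1, a chain of the receptor for interferon alpha and beta, fell after HGF (-1.50, SE 0.21, adjusted p = 0.00479). Its activin libraries held 26.9 to 41.2 CPM, and its activin + HGF libraries 10.5 to 13.7 CPM. IFNGR1, the ligand-binding chain for interferon-gamma, was higher in activin + HGF than in NC cells (1.24, SE 0.18, adjusted p = 0.00074), and at 0.96 with library totals it was no longer called.

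Taken over this list, 2 of 15 were called lower after HGF, IRF1 and IFNAR1, beside 4.21% of all tested genes. The other 13 were not called. In activin + HGF against NC, IRF7 and IFNGR1 were higher and IFNAR1 and NFKB1 lower. NFKB1, an NF-κB subunit that was named after its values were seen, had 55.0 CPM on average in NC, 42.7 in activin and 23.7 in activin + HGF cells (-1.22, SE 0.26, adjusted p = 0.0062 against NC). Its level in activin cells was thus between the other groups. Whether any factor of this list acted on the members was not tested.

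Of 6 repressors and feedback genes, 2 were called higher with activin, beside 6.78% of all tested genes. SOCS1, an inhibitor of JAK kinases, rose at each step. Its counts were 82, 84 and 78 in NC, 376, 585 and 375 in activin and 1045, 1150 and 1060 in activin + HGF libraries. The log2 fold change was 2.45 (SE 0.30, adjusted p = 0.000485) with activin and 1.43 (SE 0.28, adjusted p = 0.0127) after HGF. SOCS1 was highest in activin + HGF cells, and whether it acted on the members was not tested. The HGF call was lost without activin library 1 or 3 (adjusted p = 0.0627 and 0.0527). SOCS3, its relative, rose with activin by 1.15 (SE 0.26, adjusted p = 0.0138) and held 1.3 (SE 0.27, adjusted p = 0.00466) above NC after HGF. The call with activin was lost without NC library 1, NC library 3 or activin library 2, at log2 fold changes of 0.92 to 1.13. EZH2 and DNMT1, chromatin enzymes that can silence CXCL9 and CXCL10 in tumour cells, moved the other way. EZH2 fell after HGF (-1.20, SE 0.20, adjusted p = 0.00751), from 46.7 to 78.5 CPM in activin libraries to 26.3 to 30.4 CPM. DNMT1 was lower in activin + HGF than in NC cells (-1.22, SE 0.17, adjusted p = 0.000707). The larger part of this came with activin (-0.88, SE 0.17, adjusted p = 0.00634), under the fold threshold. After HGF it was -0.33 (SE 0.17, adjusted p = 0.225).

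Receptor transcripts were scarce. CXCR3 had 4 counts in 1 activin library and 0 elsewhere. CXCR6, the receptor of CXCL16, had 0 to 27 counts per library without a call in any comparison (adjusted p = 0.765 to 0.918). CX3CR1, the receptor of CX3CL1, had 19, 19 and 7 counts in NC, 27, 8 and 12 in activin and 0 in all activin + HGF libraries. It was called lower after HGF (adjusted p = 0.0295) and against NC (adjusted p = 0.0125). At these counts the fall was at least 3.96-fold and 4.11-fold with the floor of 3 counts, and with the floor of 12 counts no fold can be given. The HGF call was lost without activin library 1 or 3 and without each activin + HGF library (adjusted p = 0.0561 to 0.0943), and with the replicate number as a block (adjusted p = 0.0678). With limma on log2(FPKM + 0.1) or log2(FPKM + 1) neither call held, at an adjusted p of 0.093 and 0.17 after HGF and of 0.0637 and 0.139 against NC. The other 4 tested receptors and decoys were not called in any comparison. With activin, edgeR called 0 of 6 tested, beside 11.4% of all tested genes. Of the 6, 0 had an unadjusted p under 0.05 and 0 were called by DESeq2 or limma.

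Most genes that act on the chemokine proteins were expressed at higher levels, other than CTSS, with 6 to 38 counts per library. DPP4, the protease that trims the amino end of CXCL9, CXCL10, CXCL11 and CCL5, had 649 to 724 counts in activin and 1119 to 1691 in activin + HGF libraries, and rose after HGF (1.23, SE 0.25, adjusted p = 0.0134). The call was lost without activin library 1 or 3 and without activin + HGF library 1 (log2 fold change 0.96 to 1.16), and with library totals (0.86). ADAM17, a sheddase of CX3CL1, rose with activin (1.09, SE 0.21, adjusted p = 0.006), from 33.8 to 48.3 CPM to 78.1 to 109 CPM. This call was lost without NC library 3 or activin library 1, at 0.95 in both. ADAM10, the main sheddase of CXCL16, had 131 ± 17.5 CPM in NC, 74.0 ± 21.9 in activin and 103 ± 4.1 in activin + HGF cells and was not called. SDC4, a heparan sulphate proteoglycan that can hold chemokines at the cell surface, rose with activin (3.26, SE 0.31, adjusted p = 0.00014) and stayed high. Its counts were 5151 to 7016 in NC, 52557 to 64802 in activin and 36175 to 62393 in activin + HGF libraries. SDC1, another such proteoglycan, was higher in activin + HGF than in NC cells (1.20, SE 0.19, adjusted p = 0.00111), and at 0.93 with library totals it was not called.

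Chemokine mRNAs can be short-lived, and proteins that bind AU-rich elements hasten their decay. ZFP36, or tristetraprolin, rose with activin (3.25, SE 0.46, adjusted p = 0.00117) and was 4.0 (SE 0.48, adjusted p = 0.000252) above NC after HGF. ZC3H12A, an endonuclease of inflammatory mRNAs, rose with activin (1.31, SE 0.26, adjusted p = 0.00657) and was 1.11 (SE 0.26, adjusted p = 0.0089) above NC after HGF. The latter call was lost with library totals (0.81) and without NC library 1 or activin + HGF library 1 (0.97 and 0.82). ZFP36L1 was higher in activin + HGF than in NC cells (1.33, SE 0.26, adjusted p = 0.00349). For the HGF step edgeR called 0 of the 7 genes of this list, beside 8.09% of all tested genes. Of the 7, 1 had an unadjusted p under 0.05, and 0 were called by DESeq2 or limma. Decay of the member mRNAs was not tested. The letters TATTTAT, the core of such elements, were found 0 times in the annotated 3′ UTRs of CXCL9, CXCL10, CXCL11, CCL5 and CXCL16 and 1 time in that of CX3CL1, against 32.4% of 18301 protein-coding genes with at least 1.

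Of the genes beside the members on their chromosomes, 12 were tested. EdgeR called 0 with activin, where 11.4% of all tested genes were called. It called 1 after HGF, where 8.09% were, and 2 in activin + HGF against NC, where 21.5% were. Nothing is read from counts this small. With activin 4 were at an unadjusted p under 0.05, while DESeq2 and limma each called 1, CCL22. CCL22, a CCR4 ligand that lies beside CX3CL1 and was named after its values were seen, had 0, 8 and 0 counts in NC, 37, 38 and 65 in activin and 19, 12 and 0 in activin + HGF libraries (edgeR log2 fold change with activin 4.0, SE 1.57, adjusted p = 0.108). NAAA, near the CXCL9 cluster, had 539 to 609 counts in activin and 975 to 1268 in activin + HGF libraries and rose after HGF (1.14, SE 0.23, adjusted p = 0.0138), opposite to CXCL10 and CXCL11. The call was lost with library totals (0.78) and without activin library 1 or 3 or activin + HGF library 1 (0.91 to 1.07). SDAD1, on the same cluster's flank, and ZMYND15, which overlaps CXCL16, were lower in activin + HGF than in NC cells (-1.22 and -1.34, adjusted p = 0.0384 and 0.0244). The SDAD1 call was lost on omission of any of the 6 libraries compared (adjusted p = 0.0526 to 0.113), and that of ZMYND15 on omission of any but activin + HGF library 3 (0.055 to 0.083). MED11, which also overlaps CXCL16, was not called, with log2 fold changes of -0.68 with activin and 0.18 after HGF. CXCL10 and CXCL11 lie within the span of ART3 on the opposite strand, and ART3 was not analysed here.

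Most neutrophil chemokines and CCL20 were highest in activin cells too. Of 7 genes listed, 6 had a row and 5 were tested. All 5 were called higher with activin, lower after HGF and still higher than NC after HGF. Of all tested genes, 6.78%, 4.21% and 11.3% were called so. For CXCL2, CXCL3 and CCL20 the calls after HGF and against NC depended on the setting or on single libraries, as given below. The call of CXCL1 against NC was lost with limma on log2(FPKM + 1), at 0.48. CXCL8, the main neutrophil attractant, had 28, 37 and 29 counts in NC, 4413, 3768 and 4781 in activin and 1481, 831 and 1035 in activin + HGF libraries. It rose by 7.07 on the log2 scale (SE 0.37, adjusted p = 5.16e-06), fell after HGF (-1.73, SE 0.28, adjusted p = 0.00699) and remained 5.34 (SE 0.34, adjusted p = 1.22e-05) above NC. This differed from CXCL10 and CXCL11, which had 0 counts in the same activin + HGF libraries. CXCL1 rose by 4.65 (SE 0.32, adjusted p = 2.49e-05), fell after HGF (-3.18, SE 0.30, adjusted p = 0.000946) and was 1.46 (SE 0.29, adjusted p = 0.00423) above NC. CCL20, which attracts CCR6-bearing lymphocytes and dendritic cells, had 0 counts in NC, 211, 144 and 247 in activin and 0, 15 and 8 in activin + HGF libraries. CCL20 was at least 57.5-fold higher with activin at the floor of 3 counts, or 14.4-fold with the floor of 12 counts. With a pseudocount of 1 it was the gene second nearest to CXCL11, at a distance of 0.584. CXCL5, the list's gene that had a row but was not tested, went the other way, with 0, 19 and 14 counts in NC and 0 in all other libraries.

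CXCL2 and CXCL3, further neutrophil attractants, rose by 3.31 (SE 0.50, adjusted p = 0.00172) and 2.74 (SE 0.39, adjusted p = 0.00126) with activin. Their falls after HGF (-1.79 and -1.45, adjusted p = 0.034 and 0.0319) and their excess over NC (1.52 and 1.28, adjusted p = 0.0341 and 0.0265) were near the threshold. In the HGF step CXCL2 lost its call without each activin library and without activin + HGF library 2 (adjusted p = 0.0535 to 0.0864), and CXCL3 without activin library 2 or 3 or activin + HGF library 1 or 2 (0.0597 to 0.0952). With the 6 libraries compared alone both lost the HGF call (adjusted p = 0.0679 and 0.0732). CXCL3 also lost it without the filter (0.0508), with a replicate block (0.0544) and with limma on log2(FPKM + 1), at a log2 fold change of -0.94. Against NC both lost it without each NC library and without activin + HGF library 3, and CXCL2 also without library 2 (0.0691 to 0.126). With library totals these excesses over NC were 1.3 and 1.02 and not called (adjusted p = 0.0744 and 0.0562). Limma on log2(FPKM + 0.1) did not call them either (adjusted p = 0.125 and 0.095). CXCL2 also lost this call without the filter, with a replicate block and with the 6 libraries compared alone (0.0523 to 0.0708). Activin + HGF library 1 had 0.496 CPM of CXCL2, within the 0.286 to 0.523 CPM of NC. CCL20 lost the HGF call without activin library 1 or 3 (adjusted p = 0.062 and 0.058) and its call against NC without NC library 3 or activin + HGF library 2 (0.0536 and 0.056). Its call against NC was also lost with limma on log2(FPKM + 0.1) or log2(FPKM + 1) (0.213 and 0.657).

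Other lymphocyte and monocyte chemokines were low throughout. Of 19 listed, 12 had a row and 5 were tested. EdgeR called 0 of the 5 in any of the 3 comparisons, where 11.4%, 8.09% and 21.5% of all tested genes were called. Of the 5, 0 had an unadjusted p under 0.05 and 0 were called by DESeq2 or limma. The most abundant, CCL26, an eotaxin, had 41 to 56 counts in NC, 10 to 39 in activin and 5 to 46 in activin + HGF libraries. CCL2, the main monocyte attractant, had 0 to 9 counts per library, and CCL4, a CC chemokine like CCL5, had 0, 8 and 5 counts in activin libraries and 0 elsewhere. Both were chosen after their values were seen, as was CCL26.

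**Figure D3:**
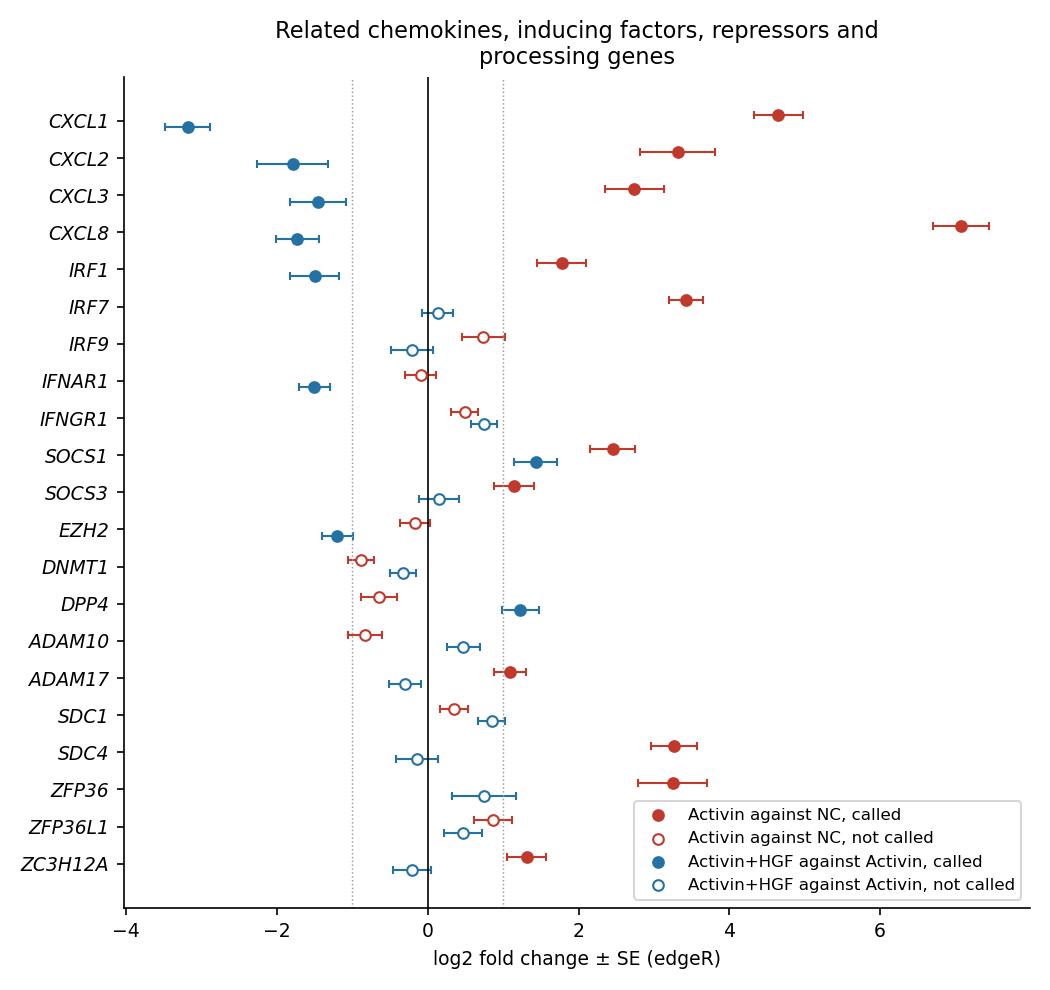
Log2 fold changes with their SE (edgeR, horizontal axis) of named genes related to the members, for activin against NC in red and activin + HGF against activin in blue. Filled points passed both thresholds and dotted lines mark the fold threshold. CXCL1, CXCL2, CXCL3, CXCL8 and IRF1 lie right of 0 for activin and left of 0 after HGF, whereas IRF7 and SDC4 stay near 0 after HGF.

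Markers of other cell types were checked, since T cells and myeloid cells also make CCL5 and the CXCR3 ligands. All 6 epithelial markers were present in every group, with a summed level of 2820 to 3080 CPM in NC, 1970 to 3520 in activin and 3570 to 4720 in activin + HGF libraries. Among them CLDN4 differed widely between libraries of the same group. Its counts were 264, 11999 and 13708 in NC, 19968, 26361 and 490 in activin and 316, 338 and 50072 in activin + HGF libraries. Of 8 T and NK cell markers 5 had a row, with sums of 1.37 to 2.27 CPM in NC, 1.73 to 4.14 in activin and 2.79 to 3.58 in activin + HGF libraries. CD3E and CD2, which define T cells, were at 0 in every activin library. CD8A had 60, 73 and 142 counts in NC, 153, 170 and 98 in activin and 60, 64 and 83 in activin + HGF libraries, without a call. KLRD1, an NK cell receptor, had 22, 22 and 41 counts in NC, 149, 57 and 32 in activin and 124, 148 and 96 in activin + HGF libraries and was called higher in activin + HGF than in NC cells (2.30, adjusted p = 0.0109). Of 8 myeloid markers 7 had a row, and their sum was 1.83 to 2.66 CPM in NC, 4.05 to 5.40 in activin and 1.53 to 4.61 in activin + HGF libraries. The activin libraries were above NC in this sum and overlapped with activin + HGF. PTPRC, the pan-leukocyte marker CD45, had 11, 0 and 0 counts in activin, 0 in NC and 0, 4 and 0 in activin + HGF libraries. CSF1R, the receptor of macrophage colony-stimulating factor, had 26, 16 and 23 counts in NC, 120, 154 and 115 in activin and 9, 46 and 10 in activin + HGF libraries and was called in both steps (2.56 and -2.49, adjusted p = 0.0179 and 0.0292). LYZ, the lysozyme gene, was called higher with activin (2.74, adjusted p = 0.0134) and against NC after HGF (1.95, adjusted p = 0.0349). CD14, ITGAM and FCER1G, the other 3 myeloid markers tested, were not called, at -0.73, -0.06 and -0.85 with activin. The sum of 6 fibroblast and endothelial markers of 7 was 23.7 to 25.6 CPM in NC, 46.5 to 53.6 in activin and 33.6 to 41.1 in activin + HGF libraries, of which COL1A1 made up most, and DCN and CDH5 were at 0 in NC and activin + HGF libraries. What part other cell types had in the levels of the members was not tested.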

How the data were processed

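Per the labels, total RNA of HCT116 cells was depleted of ribosomal RNA and sequenced, and the submitters' processing notes name cutadapt 1.9, HISAT2 2.0.4 and StringTie 1.3.4d. The authors deposited a count per gene, without normalization, and an FPKM value that the authors had scaled to library size and gene length, for 33861 genes. The counting program, its use of strand and the annotation release are not given in the sources used here. Spans in the table matched GRCh38. GENCODE 29 gave neighbours and 3′ UTRs, and RefSeq (GRCh38.p14) gave promoters.

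Counts were tested with edgeR 4.0.16 in R 4.3.3 (filterByExpr, TMM scaling, glmQLFit and glmQLFTest) fitted to the 9 libraries together, each group with its own mean. Calls required a p adjusted over all 20988 tested genes (Benjamini-Hochberg) below 0.05 and a log2 fold change of 1 or more in size. SEs are approximate, since they were derived from F statistics. Folds against a group at 0 were set against 3 counts in its smallest library. The fitted log2 values of CXCL10 and CXCL11 depend on the prior count and are not given. The 3 comparisons share libraries. The test was also tried on counts simulated from the gene means of these data and the trend of their spread with level, not each gene's own spread. A log2 change of 2 in size was given to 200 genes, and 20194 genes passed the filter in the simulated counts. Of the changed genes that passed it, 72% were called, and 3.55% of the calls were false. Further tools were limma 3.58.1 and DESeq2 1.42.0 for the alternatives, and matplotlib 3.10.9, pandas 2.3.3 and numpy 2.4.6 under Python 3.11.15. Alternatives were other scaling, filters, a replicate block, fits restricted to 6 libraries, limma on FPKM, DESeq2 and each library left out, and, chosen after seeing the data, counts divided by 4 and the floor of 12 counts.

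The members and lists were chosen with earlier results of these data known. Named were all members, every called gene of a list with up to 10 genes, the 3 with the smallest p in longer lists, the receptors CXCR3, CX3CR1 and CXCR6, DPP4, ADAM10, ADAM17, IRF1 and IRF9, genes overlapping a member, and the 3 nearest genes in profile. A few genes covered by it were left out of the text. Depth was 57453977 to 77016167 counts per library, and 3 libraries per group limit the precision.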

Additional observations from a re-analysis of the deposited data

How the results depend on the processing

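The members were chosen on these contrasts, so the stability of their calls supports nothing. Counts of members called were 3 to 3 with a library left out for activin against NC, 3 to 4 for the HGF step, where CXCL16 joined without activin library 2, and 0 to 1 for activin + HGF against NC. The last was 0 with library totals, 0 with limma on log2(FPKM + 0.1), 0 with limma on log2(FPKM + 1) and 0 without NC library 1. Counts of related genes called were 11 to 14, 6 to 13 and 16 to 19 with a library left out, and 12 against NC with limma on log2(FPKM + 1) in place of 21. The cause was not tested. Library totals in place of TMM scaling moved the median of all tested genes to -0.38 for the HGF step and -0.30 against NC, and no value changed its direction past the threshold. Over 87 single-gene results, 1261 of 1381 other fits kept the call or its absence, 100 lost a call and 20 gained one. A replicate block left 13, 11 and 20 related genes and 3, 3 and 1 members called. Libraries with equal numbers deviated from their groups with correlations between -0.0563 and 0.0787, so the numbers were not taken to pair the libraries. Depth limits CXCL9 and CX3CL1, whose counts were at or near 0, and the receptors CXCR3, CX3CR1 and CXCR6.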
